A study of Mus musculus with 6 samples.

Results

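The 10 genes described here encode blood coagulation factors, their inhibitors and 2 proteins of platelet granules: F3, F7, F10, F5, F13a1, Tfpi, Thbd, Procr, Thbs1 and Pf4. They were chosen by gene symbol, and all 10 were found among the 38293 genes listed in each count table. The study measured RNA in single live CD11b+ cells of the spinal cord of C57BL/6 mice aged 10 weeks. Cells had been stained with DCFDA at 10 µM, a dye made fluorescent by reactive oxygen species (ROS), and sorted by that signal. The EAE ROS+ group (2 libraries) and the EAE ROS- group (2 libraries) held dye-positive and dye-negative cells of mice in which experimental autoimmune encephalomyelitis (EAE) had just begun (disease score 1), a model of multiple sclerosis induced with the peptide MOG35-55. The healthy ROS- group (2 libraries) held dye-negative cells of mice without disease. There was no healthy ROS+ group, all mice were perfused before the spinal cord was taken, and CD11b, the sorted surface protein, is carried by microglia, monocytes, macrophages, neutrophils and some dendritic cells alike.

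In the coagulation cascade, tissue factor (F3) on a cell surface binds factor VII (F7), and the pair activates factor X (F10). Activated factor X, with factor V (F5) as its cofactor, turns prothrombin into thrombin, which makes fibrin, and factor XIII (F13a1 encodes its A subunit) cross-links the fibrin. Tissue factor pathway inhibitor (Tfpi) blocks the first steps, whereas thrombomodulin (Thbd) and the endothelial protein C receptor (Procr) help thrombin activate the anticoagulant protein C. Thrombospondin 1 (Thbs1) and platelet factor 4 (Pf4) are stored in platelet granules, and macrophages can make both. Most circulating factor VII and factor X comes from the liver, and plasma fibrinogen enters the spinal cord in EAE when the blood-brain barrier leaks.

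The labels' 6 libraries held 202 to 2233 cells and 915197 to 23407825 UMIs (unique transcript tags), with medians of 2178 to 9543 UMIs per cell. Whether the replicate libraries of a group stem from different mice is not stated in the labels, so every p-value here measures the spread between libraries, which may be technical. Itgam, which encodes CD11b, was at 268 and 321 CPM (UMIs of the gene per 1000000 UMIs of the library) in EAE ROS+, at 303 and 346 CPM in EAE ROS- and at 491 and 695 CPM in healthy libraries. Clusters marked by Ccr2, Ly6c2, Plac8 and other monocyte genes (monocyte/macrophage-like cells) made up 93.9% and 96.4% of the cells in EAE ROS+ libraries, 41.0% and 66.2% in EAE ROS- and 0% in healthy libraries. Clusters marked by Tmem119, P2ry12 and Sall1 (microglia-like cells) held 1.72% and 0.985% of the EAE ROS+ libraries, against 31.1% and 16.2% of EAE ROS- ones, and nearly all healthy cells (99.9% and 100%). The share of dendritic cell-like cells was 0.172% and 0.0896% among EAE ROS+ cells, against 10.3% and 6.54% among EAE ROS- cells, and a cluster with both microglial and monocyte genes held 520 EAE cells, with a median of 17746 UMIs, which were kept out of both classes. Healthy replicate 2 stood apart, with 202 cells, and endothelial markers summed to 71.2 to 132 CPM in the EAE libraries, to 842 CPM in healthy replicate 2 and to 28.0 CPM in healthy replicate 1. Cells with at least 3 endothelial UMIs numbered 262 of 1745 and 235 of 2233 in EAE ROS+, 124 of 1614 and 148 of 1529 in EAE ROS-, and 2 of 1755 and 28 of 202 in healthy libraries. Of the 769 such EAE cells 1 was microglia-like, as were all 28 of healthy replicate 2. Between 0 and 7 cell barcodes were shared by any pair of libraries.

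F7 and F10 lie next to each other on chromosome 8 of GRCm38. F7 spans chr8:13026034-13035809 and F10 spans chr8:13037308-13056676, both on the plus strand, with 1498 bases and no annotated gene between them. The other 8 members are F3 at chr3:121723537-121735048, F5 at chr1:164151838-164220277, F13a1 at chr13:36867178-37050244, Tfpi at chr2:84432855-84476775, Thbd at chr2:148404466-148408188, Procr at chr2:155751117-155755471, Thbs1 at chr2:118111876-118127133 and Pf4 at chr5:90772435-90773383. Of these, F13a1, Tfpi and Thbd are on the minus strand, in the GENCODE M21 annotation. RefSeq promoter windows (GRCm38.p6, the 250 bases before the annotated start) were at hand for 8 members, with 2 starts each for F13a1 and Tfpi. The windows below are shown because they belong to the neighbouring pair F7 and F10, to F13a1 and Pf4, which were both higher in EAE ROS+ libraries, and to Tfpi, which had the opposite pattern over cell classes. Each is written 5′ to 3′ on the gene's strand, and capitals mark GAGGAA or its reverse complement TTCCTC, the core that the myeloid transcription factor PU.1 is known to bind.
F7: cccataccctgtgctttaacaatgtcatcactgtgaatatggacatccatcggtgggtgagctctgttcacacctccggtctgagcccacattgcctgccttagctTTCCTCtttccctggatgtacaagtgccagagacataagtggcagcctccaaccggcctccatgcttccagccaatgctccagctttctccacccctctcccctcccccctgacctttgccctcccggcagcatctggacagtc
F10: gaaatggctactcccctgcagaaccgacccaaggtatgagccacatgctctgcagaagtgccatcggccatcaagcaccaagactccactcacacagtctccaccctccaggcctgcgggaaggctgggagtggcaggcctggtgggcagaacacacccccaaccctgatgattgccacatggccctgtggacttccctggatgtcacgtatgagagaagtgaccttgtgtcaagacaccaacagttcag
F13a1: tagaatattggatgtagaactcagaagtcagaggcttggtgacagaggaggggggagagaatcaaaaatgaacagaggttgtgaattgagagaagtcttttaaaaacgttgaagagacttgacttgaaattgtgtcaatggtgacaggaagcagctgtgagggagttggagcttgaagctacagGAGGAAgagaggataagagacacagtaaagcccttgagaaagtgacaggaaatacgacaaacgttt
Pf4: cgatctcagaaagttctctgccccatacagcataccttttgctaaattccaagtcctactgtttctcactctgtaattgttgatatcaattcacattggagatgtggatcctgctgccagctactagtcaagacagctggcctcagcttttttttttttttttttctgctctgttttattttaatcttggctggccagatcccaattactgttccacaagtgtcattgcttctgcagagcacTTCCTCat
Tfpi: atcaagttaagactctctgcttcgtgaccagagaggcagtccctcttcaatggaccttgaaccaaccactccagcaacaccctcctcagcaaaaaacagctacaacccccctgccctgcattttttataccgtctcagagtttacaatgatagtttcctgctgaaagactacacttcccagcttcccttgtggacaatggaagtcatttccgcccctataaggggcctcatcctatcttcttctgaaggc
The windows are chr8:13025784-13026033 for F7, chr8:13037058-13037307 for F10, chr13:37050245-37050494 (minus strand, first of 2 starts) for F13a1, chr5:90772185-90772434 for Pf4 and chr2:84476760-84477009 (minus strand, first of 2 starts) for Tfpi. The core lay 144 bases before the start of F7, 66 bases before that of F13a1 and 8 bases before that of Pf4. It was not in the windows of F10 or of the first Tfpi start, and it lay 40 bases before the second Tfpi start. Of all 32851 windows of 250 bases, 23.3% held it on either strand. The AP-1 motif TGANTCA matched 2 times in the window of F3 and 1 time in that of Procr, and 6.75% of all windows held it. The C/EBP motif TTGCNNAA, or TTNNGCAA on the other strand, was in the windows of Procr and Pf4 and in 9.56% of all windows. A match is a run of letters and was not tested as a binding site.

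Over all cells of a library, most of the 10 genes were far higher in EAE than in healthy libraries, whereas Tfpi was highest in healthy ones. F10 stood at 458 and 535 CPM in EAE ROS+, at 221 and 513 CPM in EAE ROS- and at 1.35 and 2.19 CPM in healthy libraries, where only 6 and 2 UMIs were counted. The F10 values of all 4 EAE libraries lay above both healthy ones, and the 2 EAE groups overlapped. F7 stood at 28.6 and 41.3 CPM in EAE ROS+ and at 10.0 and 31.0 CPM in EAE ROS-, and no F7 UMI was found in either healthy library. F13a1, Thbs1 and Pf4 each had both EAE ROS+ libraries above both EAE ROS- libraries. For F13a1 the values were 128 and 139 CPM in EAE ROS+, 32.9 and 57.9 CPM in EAE ROS-, and 0.451 and 0 CPM in healthy libraries. Thbs1 was at 146 and 131 CPM in EAE ROS+, at 41.0 and 54.7 CPM in EAE ROS- and at 5.64 and 1.09 CPM in healthy libraries. Pf4 was at 16.8 and 17.5 CPM in EAE ROS+, at 4.63 and 6.72 CPM in EAE ROS- and at 0.226 and 0 CPM in healthy libraries. Tfpi ran the other way: it was lowest in EAE ROS+ at 3.37 and 2.14 CPM, intermediate in EAE ROS- at 16.1 and 9.66 CPM and highest in healthy libraries at 34.7 and 36.1 CPM, with no overlap between any 2 groups. Procr was at 43.7 and 50.3 CPM in EAE ROS+, at 45.1 and 80.2 CPM in EAE ROS- and at 3.61 and 2.19 CPM in healthy libraries. F3, F5 and Thbd were low everywhere, at no more than 12.9, 4.66 and 5.76 CPM in any library, and for all 3 the EAE ROS- and healthy ranges overlapped. With 2 libraries per group, groups can lie apart without a difference, and the share of all genes without overlap was not counted.

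**Figure D1:**
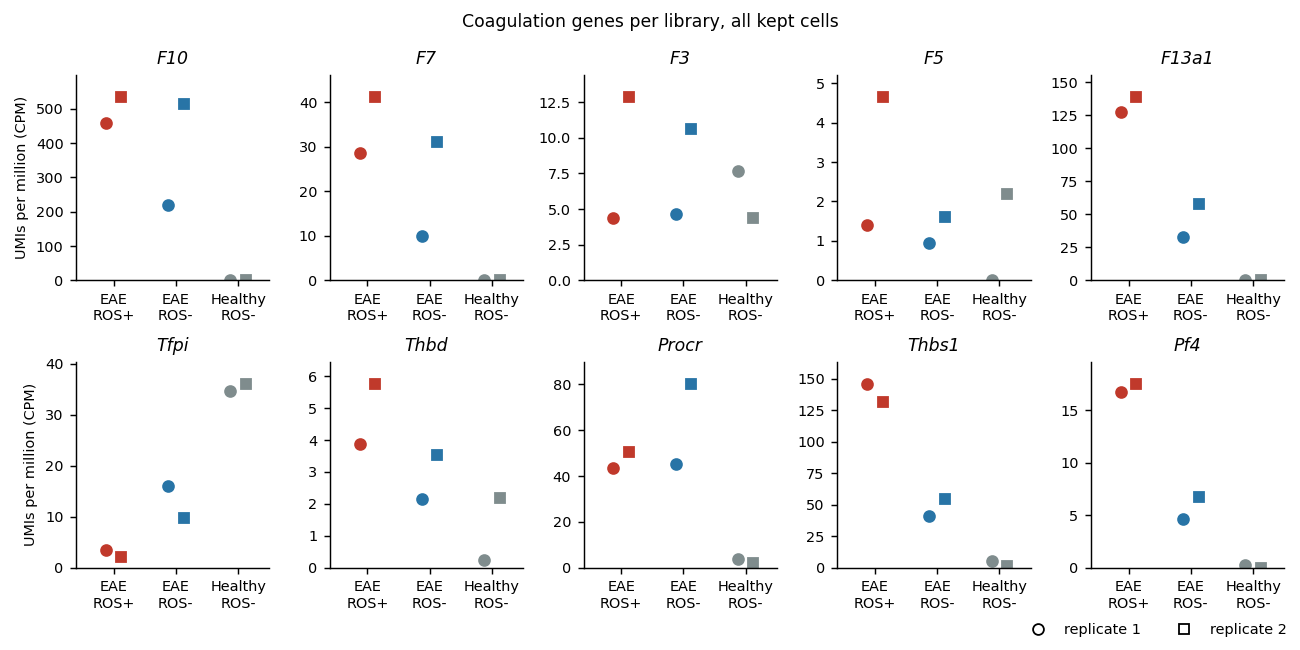
Level of each gene over all kept cells of a library (y axis, CPM, linear from 0), with 1 point per library, circles for replicate 1 and squares for replicate 2. F13a1, Thbs1 and Pf4 have both EAE ROS+ points above both EAE ROS- points, and Tfpi is highest in the healthy libraries, at 34.7 and 36.1 CPM.

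Between the EAE gates, 3 of the 10 genes rose in ROS+ libraries, 1 fell and 6 did not pass the test, beside 0.125% of all 13631 genes tested that rose and 2.04% that fell (quasi-likelihood test of edgeR, p adjusted by Benjamini-Hochberg and called under 0.05). Pf4 rose by a log2 fold change of 1.77 ± 0.28 (SE; adjusted p = 0.0129), F13a1 by 1.72 ± 0.29 (adjusted p = 0.018) and Thbs1 by 1.70 ± 0.29 (adjusted p = 0.0177), with edgeR. These are 3 of the 17 genes that rose, and each was higher in 2 of 2 ROS+ libraries than in either ROS- library. Tfpi fell by 2.03 ± 0.32 on the log2 scale (edgeR adjusted p = 0.0131). F10, at a log2 fold change of 0.59 ± 0.36, and F7, at 0.93 ± 0.47, did not pass (edgeR adjusted p = 0.589 and 0.504), and Procr was at -0.25 ± 0.29 (0.781). F3, F5 and Thbd, at 0.33, 1.40 and 0.93, did not pass either. Without EAE ROS- replicate 1 none of the 4 calls held, at adjusted p from 0.0544 for F13a1 to 0.106 for Pf4. The calls of Thbs1 and Pf4 were lost without EAE ROS+ replicate 1, those of F13a1, Tfpi and Pf4 without EAE ROS+ replicate 2, and those of F13a1 and Tfpi without either healthy library, where adjusted p lay between 0.0543 and 0.0906. With EAE libraries only, F13a1 (0.069) and Tfpi (0.0581) did not pass. Without EAE ROS- replicate 2 the 4 calls held, and F10 (1.38, adjusted p = 0.0147) and F7 (2.01, adjusted p = 0.00443) passed as well.

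The gates differ in cell classes, and fewer cells of a class and less RNA per cell cannot be told apart in such sums. Of 12 microglia markers, 10 were lower in EAE ROS+ than in EAE ROS- libraries in the same test, at a median log2 fold change of -2.37, beside Tfpi at -2.03. Of 13 monocyte/macrophage markers 0 passed, at a median of 0.96, and the median over all genes was -0.01. Values within classes are given below.

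Between EAE ROS- and healthy ROS- libraries, F10, Procr and Thbs1 rose and Tfpi fell among the 5 members that met the filter on low counts in both groups, and F3 did not pass, where 19.9% of all genes tested rose and 14% fell. The other 5 met it through the EAE libraries and are given by their UMIs, without a p. F10 rose by a fitted log2 fold change of 8.41 ± 0.61 (SE), Procr by 4.75 ± 0.43 and Thbs1 by 3.89 ± 0.40. In healthy replicates 1 and 2 F10 had 6 and 2 UMIs, Procr 16 and 2, and Thbs1 25 and 1. They reached the filter's 0.731 CPM on these few UMIs, so these genes are given without a p as well. F7 had 527 UMIs in EAE ROS- against 0 in healthy libraries and was at least 34.0-fold higher if 3 UMIs are allowed over the healthy group. F13a1 had 1207 UMIs against 2, a ratio of 117 (95% counting interval 32.2 to 964). Pf4 had 153 UMIs against 1 (ratio 29.6, 5.23 to 1176), Thbd 76 against 3 (4.90, 1.61 to 24.3) and F5 34 against 2 (3.29, 0.842 to 28.2). Tfpi fell by 0.97 ± 0.32 on the log2 scale (edgeR adjusted p = 0.0421), and this call was lost with DESeq2 (adjusted p = 0.0517), without EAE ROS- replicate 2 (0.249) and without healthy replicate 2 (0.116). Without healthy replicate 1, which leaves the 202 cells of healthy replicate 2 as the only healthy library, Tfpi did not pass either (-1.02, edgeR adjusted p = 0.162). Of the 33 Tfpi UMIs of healthy replicate 2, 10 lay in its cells with at least 3 endothelial UMIs, as did both of its Thbd UMIs. Without such cells in any library, which took out 769 EAE and 30 healthy cells, Tfpi was at -0.90 (edgeR adjusted p = 0.0632). F3 was at 0.66 ± 0.64. In this comparison 12 of 13 monocyte/macrophage markers rose, at a median log2 fold change of 6.58, and all 12 microglia markers fell, at a median of -2.55, so a change in the cells and a change of expression within cells cannot be told apart over whole libraries.

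Within the EAE libraries, monocyte/macrophage-like cells held 72.5% of the UMIs of all genes, and the shares of 9 of the 10 members lay above that. This is a pooled share, and how many single genes of all lie above it was not counted. The monocyte/macrophage-like cells held 87.5% of 28589 F10 UMIs, 86.2% of 1835 F7 UMIs, 88.9% of 6345 F13a1 UMIs, 88.5% of 6736 Thbs1 UMIs and 89.1% of 817 Pf4 UMIs. Their share was 89.2% for F5 and 86.7% for Thbd, and 79.4% for Procr and 79.2% for F3, close to that of all genes. Tfpi was the exception, with 20.4% of 481 UMIs in monocyte/macrophage-like cells, 45.1% in microglia-like cells and 34.1% in the cluster with both sets of genes, which held 8.20% and 16.3% of the UMIs of all genes. Procr and Thbs1, the members among the variable genes, had been left out of the clustering.

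**Figure D2:**
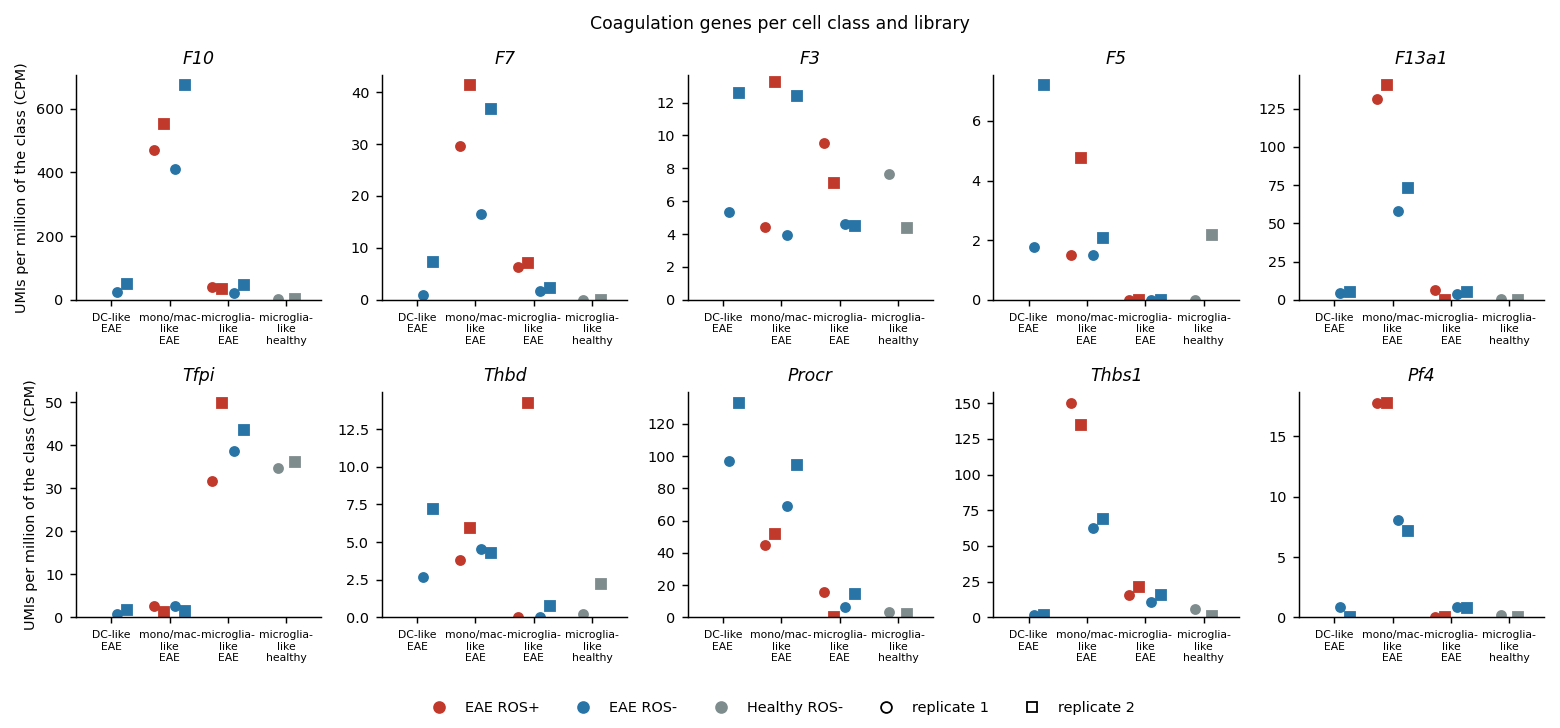
Level of each gene per cell class and library (y axis, CPM, over the UMIs of that class in that library), for sums over at least 20 cells. Colours give the group and shapes the replicate, and the panels of F10, F7, F13a1, Thbs1 and Pf4 peak in monocyte/macrophage-like cells, the panel of Tfpi in microglia-like cells, and the panel of Procr is high in dendritic cell-like and monocyte/macrophage-like cells.

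The initiating factors differed from each other by class. F10, the protease at the point where the cascade's branches meet, was at 471 and 551 CPM in EAE ROS+ and at 412 and 674 CPM in EAE ROS- monocyte/macrophage-like cells. In microglia-like cells of the same libraries it was at 41.3 and 35.6 CPM (ROS+) and at 20.2 and 46.6 CPM (ROS-), so no library of one class reached any of the other. F7, which circulates as the partner of tissue factor, was at 29.7 and 41.3 CPM (ROS+) and at 16.6 and 36.7 CPM (ROS-) in monocyte/macrophage-like cells, against 12 UMIs over all EAE microglia-like cells. F3 overlapped between the classes: 4.41, 13.2, 3.95 and 12.4 CPM in monocyte/macrophage-like cells of EAE ROS+ replicates 1 and 2 and EAE ROS- replicates 1 and 2, and 9.52, 7.13, 4.63 and 4.51 CPM in microglia-like cells in the same order. F5 had 124 UMIs in monocyte/macrophage-like cells and 0 in microglia-like cells of the EAE libraries.

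In the test of monocyte/macrophage-like against microglia-like cells, with the library as a block, 6 members met the filter on low counts in both classes, of which F10, F13a1, F7, Procr and Thbs1 were higher and F3 did not pass, where 42.8% of 10839 genes were called, 21.6% higher and 21.2% lower. Pf4, F5 and Thbd met it through monocyte/macrophage-like cells and Tfpi through microglia-like cells. They entered the test by the class in which they are high and are given without a p. F7 and F13a1 reached the filter in only 2 of 4 microglia-like sums, on 12 and 22 UMIs in all, and are given without a p as well. F10 was higher by 4.24 ± 0.17 on the log2 scale (SE), F13a1 by 4.31 ± 0.25, F7 by 3.57 ± 0.33, Procr by 3.22 ± 0.25 and Thbs1 by 2.74 ± 0.20. The edgeR adjusted p was 2.44e-17 for F10, 3.45e-12 for Thbs1 and 1.46e-11 for Procr. Pf4 had 728 UMIs against 4, at a fitted log2 fold change of 3.75 ± 0.50. With classes from marker UMIs per cell the log2 values were smaller for F13a1 (2.60), F7 (2.10) and Pf4 (1.39). F5, with 124 UMIs against 0, was at least 4.68-fold higher, and Thbd had 222 UMIs against 3 (ratio 8.37, 95% counting interval 2.83 to 40.9). Tfpi, with 98 UMIs against 217, was lower by a fitted 4.02 on the log2 scale, with an SE of 0.29. F3 did not pass, at 0.61 ± 0.38 (95% interval -0.17 to 1.40, edgeR adjusted p = 0.207). The 13 monocyte/macrophage markers that named the clusters had a median of 3.72 in this test and the 12 microglia markers one of -4.63.

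Free RNA in droplets can give UMIs in any cell, so low levels were set beside those in T cell-like cells. In EAE ROS- replicates 1 and 2, the 27 and 21 T cell-like cells held F10 at 55.3 and 41.3 CPM (9 and 4 UMIs), a level like that in microglia-like and dendritic cell-like cells of the same libraries, and held no UMI of F7, F13a1, Pf4, Tfpi, F3, F5 or Thbd, which allows up to 18.4 and 31.0 CPM of each. By marker UMIs per cell, 3 and 13 of these cells fell in the monocyte/macrophage class and held 6 and 2 of those F10 UMIs. F10 was at 21.4 and 54.8 CPM (3 and 2 UMIs) in the other 24 and 8, so T cell-like cells give no clean measure of free RNA here. With every cell thinned to 2000 UMIs, 52.9% and 56.7% of EAE ROS+ and 43.7% and 62.8% of EAE ROS- monocyte/macrophage-like cells held an F10 UMI. The same share was 10.0%, 0%, 3.78% and 11.7% in microglia-like cells of EAE ROS+ replicates 1 and 2 and EAE ROS- replicates 1 and 2, 7.19% and 9.0% in EAE ROS- dendritic cell-like cells and 3.70% and 4.76% in EAE ROS- T cell-like cells. Unthinned, the monocyte/macrophage-like shares were 88.5%, 80.3%, 75.1% and 86.4% in the same order, at medians of 5424 to 9354 UMIs per cell, and those of T cell-like cells were 11.1% and 19.0%, at medians of 5028 and 4800. F10 in microglia-like cells was 8.77%, 6.47%, 4.90% and 6.91% of its monocyte/macrophage-like level in the 4 EAE libraries. The medians of the 13 monocyte/macrophage markers were 12.7%, 9.28%, 8.62% and 7.56% in the same libraries, so F10 lay below the median marker in each library.

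Within microglia-like cells, 4 members were tested in EAE ROS- against healthy ROS- libraries, where 26.3% of 9005 genes tested were called, 15% higher and 11.3% lower. Of the 4 members tested, Tfpi met the filter on low counts in both groups and was not called. F10, Thbs1 and Procr did not meet it in healthy cells and entered through the EAE cells. These 3 are therefore given by level and UMIs, without a p. Different clusters held the class in the 2 groups: EAE cells lay in one led by Ccl12 and Cst7 and one led by Ccl4 and Ccl3, and all but 2 healthy cells in one led by Gpr34 and P2ry12 and one led by Klf2 and Jun. F10 was at 20.2 and 46.6 CPM in EAE ROS- and at 1.35 and 2.19 CPM in healthy microglia-like cells. It had 136 UMIs against 8, a fitted log2 fold change of 4.53 ± 0.54 (SE). Thbs1 was at 10.9 and 15.8 CPM against 5.64 and 1.09 CPM, with 61 UMIs against 26 (1.76 ± 0.52). Its call in the fit did not hold without EAE ROS- replicate 1 or without EAE ROS- replicate 2. All 12 monocyte/macrophage markers tested rose in the same cells, at a median of 3.61, and the part of free RNA in the F10 and Thbs1 values was not tested. Procr was at 6.27 and 14.3 CPM against 3.61 and 2.19 CPM, with 42 UMIs against 18 (1.75 ± 0.66), and did not pass. Tfpi was at 38.7 and 43.6 CPM in EAE ROS- and at 34.8 and 36.1 CPM in healthy microglia-like cells, with no call (0.43 ± 0.25, 95% interval -0.11 to 0.97, edgeR adjusted p = 0.23). The remaining 6 genes were too low to test: F13a1 had 20 UMIs against 2 (ratio 10.7, 95% counting interval 2.598 to 94.4), F7 had 9 against 0, and Pf4 had 4 against 1. Between the gates, EAE ROS+ microglia-like cells (30 and 22 cells) held Tfpi at 31.7 and 49.9 CPM, around the 38.7 and 43.6 CPM of EAE ROS-. None of the 4 tested members passed there (0% of all genes did with edgeR, 558 of 9005 had p under 0.05 before adjustment, and DESeq2 called 6). The fall of Tfpi between the gates over whole libraries had no counterpart past the threshold within microglia-like cells, where its log2 fold change was -0.10 (95% interval -0.89 to 0.69), nor within monocyte/macrophage-like cells, where it was -0.02 (-1.28 to 1.24).

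Within monocyte/macrophage-like cells, no gene passed the edgeR test between EAE ROS+ and EAE ROS- libraries. The libraries did not overlap for F13a1, Thbs1, Pf4 and Procr. With 2 libraries per group this can happen without a difference, and the share of all genes without overlap was not counted. F13a1, whose product cross-links fibrin and is known from macrophages as well as platelets, was at 131 and 140.3 CPM in ROS+ and at 57.8 and 72.8 CPM in ROS- cells. Thbs1, a matrix glycoprotein that activates TGF-beta, was at 150.4 and 135 CPM in ROS+ and at 62.7 and 68.6 CPM in ROS- cells. Pf4, a heparin-binding chemokine, was at 17.8 and 17.8 CPM in ROS+ and at 8.10 and 7.15 CPM in ROS- cells. For each of these 3 genes the lower ROS+ library lay above the higher ROS- library. Procr ran the other way, at 44.8 and 51.9 CPM in ROS+ and at 68.9 and 94.3 CPM in ROS- cells. The log2 fold changes were 1.24 ± 0.19 for Pf4, 1.14 ± 0.17 for Thbs1, 1.07 ± 0.19 for F13a1 and -0.74 ± 0.21 for Procr (SE), at edgeR adjusted p of 0.526, 0.526, 0.725 and 0.999. By p they ranked 10, 11, 17 and 78 among 11789 genes, of which 0% passed, 414 had p under 0.05 before adjustment and DESeq2 called 19. With DESeq2, Thbs1 (adjusted p = 0.00629) and F13a1 (0.0283) were among those 19. F10 showed no such gap, at -0.07 ± 0.28 (95% interval -0.74 to 0.60), and F7, F3, F5 and Thbd, at 0.41, 0.06, 0.77 and 0.16, had intervals that span 0.

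**Figure D3:**
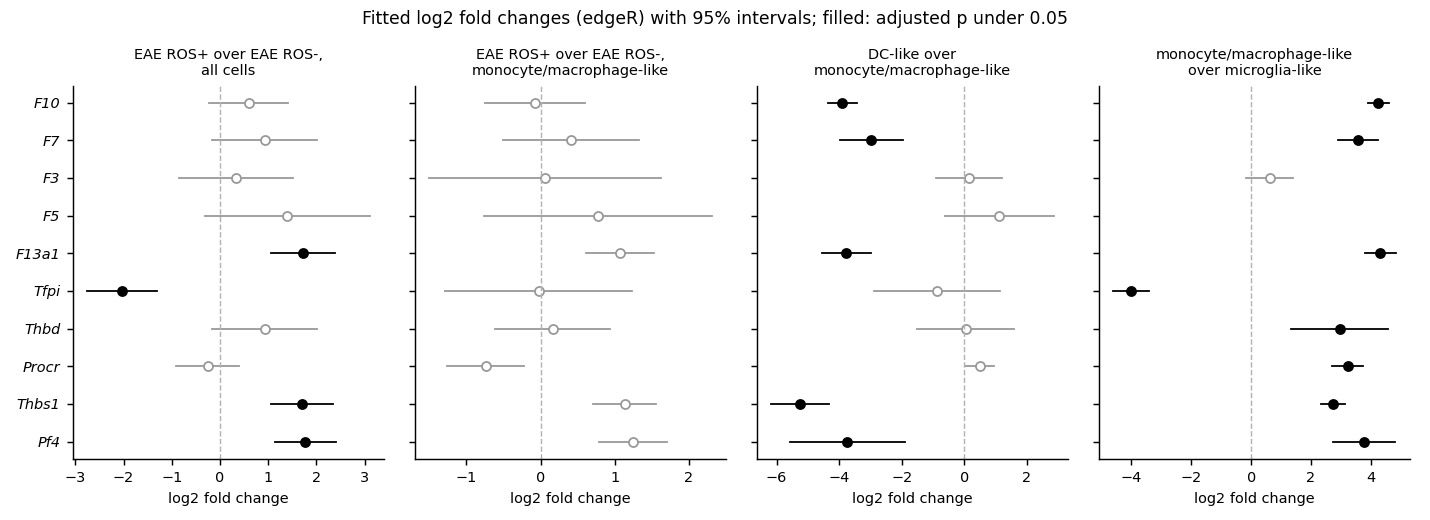
Fitted log2 fold changes of the members (points) with 95% intervals (lines) in 4 comparisons, filled where the adjusted p was under 0.05. Between the gates over all cells 3 genes rise and Tfpi falls, none passes within monocyte/macrophage-like cells, and the panels by class have F10, F7, F13a1, Thbs1 and Pf4 lower in dendritic cell-like and higher in monocyte/macrophage-like cells. F5 is left out of the last panel because it had 0 UMIs in microglia-like cells. Some filled points belong to genes that met the filter on low counts only through the class in which they are high. These are F7, Thbs1 and Pf4 in the dendritic cell-like panel, and Pf4, Thbd and Tfpi in the last panel. Few UMIs in the lower class also stand behind F13a1 in the dendritic cell-like panel (8) and behind F7 (12) and F13a1 (22) in the last panel.

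The monocyte/macrophage-like cells of the libraries were spread differently over 8 clusters. EAE ROS+ replicate 1 had 35.8% of its cells in the Saa3 Cxcl1 Cxcl2 cluster and 23.3% in the Ms4a7 Apoe Apoc2 cluster, and EAE ROS+ replicate 2 had 27.5% in the Nos2 Inhba Il6 cluster and 24.0% in the Plac8 Ccr2 Chi3l3 cluster. EAE ROS- replicate 1 had 15.2% in the MHC class II cluster and 12.8% in the Ms4a7 Apoe Apoc2 cluster, and EAE ROS- replicate 2 had 26.4% in the Nos2 Inhba Il6 cluster. The gates were therefore also set side by side within a cluster, for the 12 pairs of libraries with the same replicate number and at least 20 cells each. These pairs share libraries, more of them come from replicate 2 than from replicate 1, and they are described without a test. How many of all genes were as one-sided over these pairs was not counted.

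Within clusters, Pf4 was higher in EAE ROS+ in 12 of 12 pairs. In 2 of them it had 4 UMIs against 0, in another 2 it had 5 against 3 and 1 against 1, and the median ratio was 2.88 with the pairs against 0 taken as highest and 2.67 over the remaining 10 pairs. F13a1 was higher in 11 of 12 pairs (median ratio 1.72) and Thbs1 in 9 of 12 (1.72). Procr was lower in EAE ROS+ in 11 of 12 pairs (0.765), and F10 was higher in 6 and lower in 6 (0.977). In the Arg1 Mmp12 cluster, for example, F13a1 was at 170.3 and 246 CPM in EAE ROS+ and at 86.0 and 134 CPM in EAE ROS- cells, and Pf4 was at 20.1 and 33.8 CPM against 2.46 and 11.9 CPM. The exception for F13a1 was the interferon-responding cluster, at 211 CPM in EAE ROS+ replicate 2 and 259.6 CPM in EAE ROS- replicate 2. Averaged over the 4 clusters present in all EAE libraries, F13a1 was at 118 and 160 CPM in ROS+ and at 67.3 and 89.6 CPM in ROS-, and Pf4 at 19.4 and 40.8 CPM in ROS+ and at 8.08 and 18.2 CPM in ROS-, where the groups still did not overlap. The same averages were 128 and 130 CPM in ROS+ and 62.4 and 119 CPM in ROS- for Thbs1, and 44.2 and 44.8 CPM in ROS+ and 59.1 and 58.2 CPM in ROS- for Procr.

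**Figure D4:**
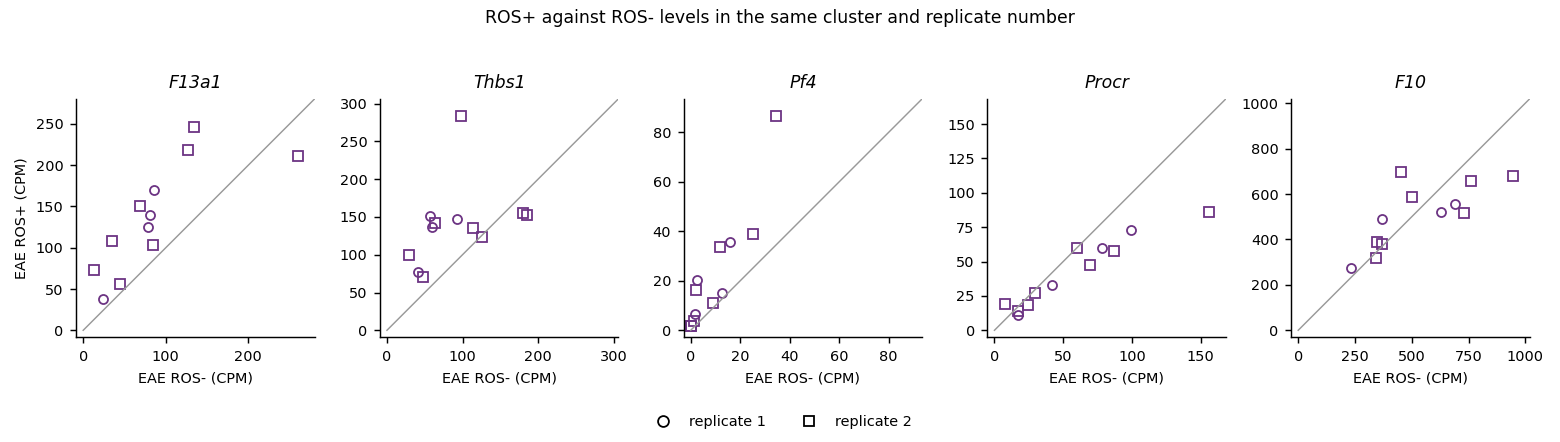
Level in EAE ROS+ (y axis) against EAE ROS- (x axis), both in CPM, for each of 12 pairs of the same monocyte/macrophage-like cluster and replicate number, with the line of equal levels. All 12 Pf4 pairs and 11 of 12 F13a1 pairs lie above the line, 11 of 12 Procr pairs lie below it, and F10 pairs lie on both sides.

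Markers of platelets were close to absent beside Pf4 and Thbs1. The 8 platelet and megakaryocyte markers summed to 2.89 and 1.59 CPM in EAE ROS+ and to 3.95 and 2.47 CPM in EAE ROS- monocyte/macrophage-like cells, with 3 to 5 of the 8 at 0. Gp1ba, Gp1bb and Tubb1 were at 0 in all 4 libraries. Markers of border macrophages, which are known to express Pf4, summed to 338 and 79.7 CPM in ROS+ and to 252 and 93.3 CPM in ROS- cells, so they were higher in replicate 1 of both gates. Ms4a7 is one of these 7 markers and is also a monocyte/macrophage marker here.

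The gate difference was not shown to depend on the class. In the test of the interaction of gate and class, none of the 9 members tested passed, where 0.179% of 11740 genes did (0.017% upwards and 0.162% downwards). The interaction was 1.11 ± 0.97 (log2, SE) for F13a1, 0.78 ± 0.56 for Thbs1 and -0.91 ± 0.76 for Procr, with edgeR adjusted p of 0.934, 0.891 and 0.926. The EAE ROS+ libraries held 30 and 22 microglia-like cells, so few UMIs stand behind these values.

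The genes differed in how widely they were spread over the clusters of monocyte/macrophage-like cells. F10 was at 771 ± 119 CPM (SD over libraries, n = 3) in the Nos2 Inhba Il6 cluster, 717 ± 163 (n = 4) in Arg1 Mmp12, 598 ± 101 (n = 4) in Saa3 Cxcl1 Cxcl2, 507 ± 76.2 (n = 3) in Arg1 Camp Chi3l3, 501 ± 139 (n = 4) in MHC class II, 374 ± 7.26 (n = 3) in interferon-responding, 355 ± 33.3 (n = 3) in Plac8 Ccr2 Chi3l3 and 291 ± 47.8 (n = 4) in Ms4a7 Apoe Apoc2. This is a 2.64-fold span, and each neighbouring pair in that order overlapped over libraries. F7 was spread more widely, from 79.2 ± 21.4 CPM (n = 4) in Arg1 Mmp12 to 8.04 ± 2.09 CPM (n = 3) in Plac8 Ccr2 Chi3l3, a 9.86-fold span. Its values in the Arg1 Mmp12 cluster were 56.3 and 105 CPM in EAE ROS+ and 68.8 and 86.2 CPM in EAE ROS-, and those in the Saa3 Cxcl1 Cxcl2 cluster, next in order, overlapped with them. F7 and F10, though neighbours on the chromosome, were thus highest in different clusters by mean. Between Arg1 Mmp12 and Nos2 Inhba Il6 the F10 ranges overlapped. F7 did not overlap there, as it was at no more than 46.3 CPM in any library of Nos2 Inhba Il6.

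F3, the trigger of the cascade, was highest by mean in the interferon-responding cluster, at 12.2 and 32.6 CPM in EAE ROS+ and 37.1 CPM in EAE ROS- replicate 2. The MHC class II cluster held F3 at 8.07 and 50.7 CPM in ROS+ and at 6.28 and 11.1 CPM in ROS-, so 1 library there stood far above the other 3. In the Ms4a7 Apoe Apoc2 cluster F3 was at no more than 3.26 CPM. F5, the cofactor of factor X, was also highest in the interferon-responding cluster, at 18.3 and 15.6 CPM in ROS+ and 7.95 CPM in ROS-. It was next highest in the Plac8 Ccr2 Chi3l3 cluster (3.39 and 5.49 CPM in ROS+, 8.03 CPM in ROS-), where every library lay above every library of Arg1 Camp Chi3l3, the next by mean. In the other 6 clusters its mean was 1.86 CPM or less. The Saa3 Cxcl1 Cxcl2 cluster still overlapped with Plac8 Ccr2 Chi3l3, at 5.42 CPM (4 UMIs) in EAE ROS+ replicate 2.

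F13a1 had the interferon-responding cluster on top at 216 ± 41.8 CPM (n = 3) and the MHC class II cluster at the bottom at 36.8 ± 25.7 CPM (n = 4). Thbs1 had the narrowest span of the 10 genes, 2.40-fold, with the interferon-responding cluster on top at 188 ± 92.9 CPM (n = 3) and Arg1 Mmp12 lowest at 78.3 ± 39.8 CPM (n = 4). Pf4 had the widest, 59.0-fold, with 4 UMIs in the lowest cluster: it was at 37.2 ± 34.4 CPM (n = 4) in Saa3 Cxcl1 Cxcl2 and 29.0 ± 10.6 CPM (n = 4) in Ms4a7 Apoe Apoc2, against 0.63 ± 1.09 CPM (n = 3) in the interferon-responding cluster, where 2 of 3 libraries had none. The high Pf4 value of 86.6 CPM in the Saa3 Cxcl1 Cxcl2 cluster came from 64 cells of EAE ROS+ replicate 2, and the other 3 libraries were between 12.6 and 34.6 CPM there.

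Procr, the receptor that presents protein C, was at 104 ± 45.3 CPM (n = 3) in Nos2 Inhba Il6, 79.2 ± 17.9 (n = 4) in MHC class II, 63.7 ± 13.2 (n = 4) in Saa3 Cxcl1 Cxcl2 and 48.6 ± 13.5 (n = 4) in Arg1 Mmp12. It was lower at 27.5 ± 2.16 CPM (n = 3) in Arg1 Camp Chi3l3, 19.8 ± 3.77 (n = 3) in Plac8 Ccr2 Chi3l3, 14.9 ± 2.67 (n = 4) in Ms4a7 Apoe Apoc2 and 13.01 ± 5.53 (n = 3) in the interferon-responding cluster. Arg1 Mmp12 was clear of Arg1 Camp Chi3l3, and Arg1 Camp Chi3l3 of Plac8 Ccr2 Chi3l3, in every library, and no other neighbours in the order of Procr were. The other inhibitors stayed low in all 8 clusters, with means of at most 7.11 CPM for Thbd and 3.23 CPM for Tfpi.

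**Figure D5:**
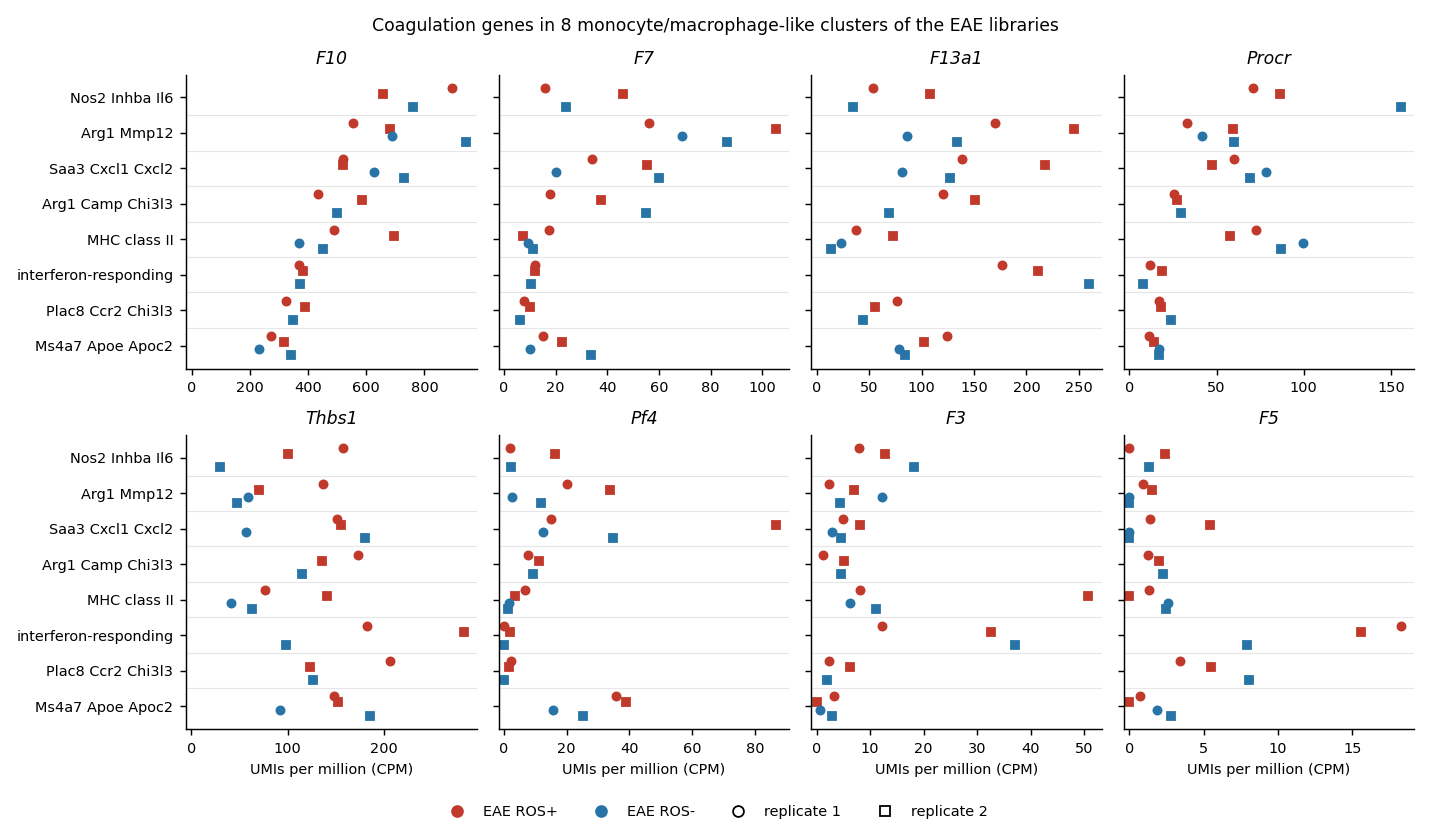
Level of 8 members (x axis, CPM, over the UMIs of the cluster in that library) in the 8 monocyte/macrophage-like clusters of the EAE libraries, ordered from top to bottom by the mean level of F10, with 1 point per library of at least 20 cells. F10 is high throughout. By mean, Procr peaks in the Nos2 Inhba Il6 and MHC class II clusters, Pf4 in the Saa3 Cxcl1 Cxcl2 and Ms4a7 Apoe Apoc2 clusters, and F3 and F5 in the interferon-responding cluster. The highest single F3 value, 50.7 CPM, is that of EAE ROS+ replicate 2 in the MHC class II cluster.

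Over the 28 sums of a cluster in a library, the genes whose log2(CPM + 1) followed F10 most closely, of 4578 genes compared, were Cd24a (Pearson r = 0.867), Itgb2 (0.845) and Niacr1 (0.844). F7 was followed by Ftl1 (0.880), Atp5g1 (0.866) and Acp5 (0.842), F13a1 by Cd93 (0.838), Gstm1 (0.780) and Metrnl (0.771), Procr by Niacr1 (0.877), Clec7a (0.869) and Sqstm1 (0.822), and Thbs1 by Lst1 (0.767), Ssbp4 (0.714) and Bscl2 (0.711). Niacr1, a receptor for niacin and ketone bodies, thus appeared for both F10 and Procr. These sums share libraries and depth and are not independent, and F3, F5, Tfpi, Thbd and Pf4 averaged under the 20 CPM required.

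Dendritic cell-like cells had F10, F13a1 and Thbs1 at far lower levels than monocyte/macrophage-like cells, and Procr at a similar or higher level. Only the EAE ROS- libraries held at least 20 of them, 167 and 100 cells. F10 was at 25.8 and 48.6 CPM, F13a1 at 4.44 and 5.40 CPM and Thbs1 at 1.78 and 1.80 CPM in dendritic cell-like cells, against 412 and 674 CPM, 57.8 and 72.8 CPM and 62.7 and 68.6 CPM in EAE ROS- monocyte/macrophage-like cells. In the test of dendritic cell-like against monocyte/macrophage-like cells, 4 members met the filter on low counts in both classes, of which F10 and F13a1 were lower and F3 and Procr did not pass, where 8.46% of 10839 genes were lower and 7.59% higher. F10 was lower by 3.90 on the log2 scale (SE 0.23, edgeR adjusted p = 3.81e-13). F13a1 was lower by a fitted 3.78, but it had only 8 UMIs in dendritic cell-like cells and is given without a p. Thbs1, F7 and Pf4 met the filter through monocyte/macrophage-like cells and had 3, 5 and 1 UMIs in dendritic cell-like cells. Procr was at 96.8 and 133 CPM in dendritic cell-like cells, against 68.9 and 94.3 CPM in EAE ROS- monocyte/macrophage-like cells, a log2 fold change of 0.48 ± 0.22 that did not pass (95% interval 0.03 to 0.94, edgeR adjusted p = 0.154). With classes from marker UMIs per cell, which moved 158 of the 273 dendritic cell-like cells to the monocyte/macrophage class and left 88, Procr was higher by 1.59 (edgeR adjusted p = 9.12e-06). F3 (5.33 and 12.6 CPM), F5 (1.78 and 7.20 CPM), Thbd (2.67 and 7.20 CPM) and Tfpi (0.888 and 1.80 CPM) did not pass, and few UMIs stand behind them. Of the 13 monocyte/macrophage markers 9 were lower in the same test, at a median of -2.26. F10 in dendritic cell-like cells rested on 29 and 27 UMIs, at a level near the 55.3 and 41.3 CPM of T cell-like cells.

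Other genes of coagulation, 36 in number and counted as a list, were mostly too low to test. Over all cells, 16 were tested: 0 were higher and 4 lower in EAE ROS+ than in EAE ROS-, beside 0.125% and 2.04% of all genes tested. The 4 were Serpine2 (-3.16), Cd36 (-2.47) and Pros1 (-1.94, log2 fold changes; edgeR adjusted p from 0.0119 to 0.0202), and Serping1 (-2.63), which met the filter on low counts through EAE ROS-. Between EAE ROS- and healthy libraries 6 were higher, Serping1 with no healthy UMI among them, and 2 lower, beside 19.9% and 14% of all genes tested. The named ones were Cd36 (7.25, with 2380 UMIs against 4), Anxa5 (3.27), Sdc4 (2.87) and Serping1, which had 144 UMIs against 0 and was at least 9.28-fold higher.

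Protein S, the cofactor of protein C encoded by Pros1, and protease nexin-1, a thrombin inhibitor encoded by Serpine2, stood with Tfpi on the microglial side. Pros1 was at 7.72, 12.9, 12.99 and 9.48 CPM in monocyte/macrophage-like cells of EAE ROS+ replicates 1 and 2 and EAE ROS- replicates 1 and 2, against 111, 135, 176 and 165 CPM in microglia-like cells in the same order. Serpine2 was at 1.71, 0.897, 7.91 and 1.79 CPM in monocyte/macrophage-like cells and at 159, 78.4, 164 and 120.2 CPM in microglia-like cells, again in that order. Of 13 listed genes tested between these classes 3 were higher and 8 lower in monocyte/macrophage-like cells, beside 21.6% and 21.2% of all genes tested. Serpine2 (-5.37), Cd36 (-4.89), Pros1 (-3.55) and Sdc4 (3.92) were furthest apart (log2; edgeR adjusted p of at most 4.23e-14 for Pros1 and Sdc4). Serpine2 did not meet the filter on low counts in monocyte/macrophage-like cells. Cd36, a receptor of Thbs1, was at 256 and 212 CPM in EAE ROS- and at 0.903 and 0 CPM in healthy microglia-like cells. It had 1221 UMIs against 4, a fitted log2 fold change of 8.42 ± 0.45. Because it met the filter on low counts through the EAE cells, it is given without a p. In the same cells Serpine2 was at 164 and 120.2 CPM against 396 and 370.4 CPM and was lower by 1.20 on the log2 scale (edgeR adjusted p = 0.00495), Anxa5 was higher by 1.36 (0.0103), and Serping1, the C1 inhibitor, had 61 UMIs against 0, at least 21.7-fold higher. Of 12 listed genes tested, 3 were higher and 1 lower there, beside 15% and 11.3% of all genes tested. In dendritic cell-like against monocyte/macrophage-like cells, 1 of 13 was higher and 4 were lower, beside 7.59% and 8.46% of all genes tested. The lower ones were Lman1 (-1.26), Mcfd2 (-1.06), Sdc4 (-1.05) and Anxa5 (-0.93). Lman1 and Mcfd2 together carry factors V and VIII out of the endoplasmic reticulum. Between the gates within monocyte/macrophage-like cells, 0 of 12 listed genes passed, where 0% of all genes did.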

How the data were processed

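The deposited files hold UMI counts per gene and cell barcode in 6 libraries, made by the authors with 10x Chromium 3′ chemistry and not normalized, per the file headers and the labels' protocols. The submitters' processing notes name Cell Ranger 2.0.1, Seurat 3, R 3.4.2 and mm10, without their roles. The files held 9079 barcodes, while the design text states 8701 cells. A filter of at least 200 genes and no more than 10% mitochondrial UMIs per barcode removed 1 and left 9078, and no doublet caller was run, so doublets may remain in every class.

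Cells were scaled to 10000 UMIs and clustered on 1995 of 2000 variable genes, without the 5 coagulation genes among them (30 components, 15 neighbours, Leiden resolution 1, seed 7; scanpy 1.11.5, leidenalg 0.10.2). A cluster was given a class from at least 3 detected markers of a list. UMIs were summed per library, or per class and library where at least 20 cells were present, and levels are UMIs per 1000000 UMIs of that sum, not divided by transcript length because 3′ tags were counted. Each comparison was fitted over all genes with edgeR 4.0.16 (quasi-likelihood test after TMM scaling, genes kept by filterByExpr at a minimum count of 10, R 4.3.3), with p-values adjusted by Benjamini-Hochberg at 0.05. A member met that filter in a group where at least 2 of the group's sums reached the filter's CPM. Only the 4 EAE libraries entered the gate comparison within monocyte/macrophage-like cells, the class comparisons kept the library as a block, and the other fits used all 6 libraries. The fit was tested on simulated data with 200 changed genes before use. Counting intervals are exact at 95%, and they and the limit of 3 counts for a count of 0 cover counting error only.

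All 10 members were named in every comparison, and of the 36 other coagulation genes up to 4 per comparison, those with adjusted p under 0.05 and the largest change. The members, gene lists and marker lists were chosen with earlier results of these data known. The alternatives were other size factors, DESeq2 1.42.0, no filter on low counts, the replicate number as a block, EAE libraries only, each library left out, classes from marker UMIs per cell, and Leiden resolution 2. Leaving out cells with at least 3 endothelial UMIs was added after seeing the data.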

Additional observations from a re-analysis of the deposited data

How the results depend on the processing

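Over the alternatives, 264 of 294 refitted values of called members kept their call, 30 lost it and 0 changed direction, and of 403 values of uncalled members 348 stayed uncalled in the same direction, 15 passed and 40 changed direction. The number of called genes of all genes was within 1.5 times in 55 of 87 settings, and that of called members in 73 of 87. Between the gates over all cells, 295 genes were called, against 1006 with no filter on low counts and 153 with EAE libraries only, which called 2 members in place of 4 (F13a1 at edgeR adjusted p = 0.069 and Tfpi at 0.0581 were lost), and F7 passed with no filter (0.0124). Within microglia-like cells between the gates 0 genes were called, against 6 with DESeq2 and 33 with no filter. Against healthy microglia-like cells 2 members were called (F10 and Thbs1, which met the filter through EAE cells). There were 4 with no filter and 5 with classes from marker UMIs, and Procr passed in both. Within monocyte/macrophage-like cells between the gates 0 genes were called, against 19 with DESeq2, 102 with no filter and 9 with classes from marker UMIs, and 0 members, against 2 with DESeq2 and 3 with no filter (edgeR adjusted p = 0.000748 for F13a1, 0.000229 for Thbs1 and 0.00029 for Pf4). In dendritic cell-like against monocyte/macrophage-like cells 1740 genes were called, against 1093 with classes from marker UMIs, which left 88 of 273 dendritic cell-like cells in their class, moved 158 to the monocyte/macrophage class, put Procr at 1.59 (edgeR adjusted p = 9.12e-06) and lost Pf4 (0.248). The interaction had 21 called genes, and 2 with DESeq2. The causes were not tested.

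The labels give no meaning to the replicate numbers, and the deviations of same-numbered libraries correlated at 0.424 between EAE ROS+ and EAE ROS-, at -0.0424 between EAE ROS+ and healthy and at 0.0174 between EAE ROS- and healthy libraries. With the replicate block, 596 genes were called between the gates over all cells, 1 within microglia-like cells and 65 within monocyte/macrophage-like cells, where 3 members passed (edgeR adjusted p = 0.00574 for F13a1, 0.00495 for Thbs1 and 0.0185 for Pf4).

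Directions changed for uncalled members only. With classes from marker UMIs, the log2 values were -0.39 (F10) and -0.047 (Thbs1) between the gates in microglia-like cells, 0.12 (F10), -0.16 (F3) and 0.10 (Tfpi) between the gates in monocyte/macrophage-like cells, -1.55 (F3), 0.024 (Tfpi) and -1.30 (Thbd) in dendritic cell-like cells, and 0.56 (F10) for the interaction. With no filter Tfpi was at 0.031 between the gates in monocyte/macrophage-like cells and Thbd at -0.0019 in dendritic cell-like cells, and with EAE ROS- libraries only Thbd was at -0.023 there.

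With each library left out in turn, the called genes and called members ranged over 123 to 632 and 0 to 6 between the gates over all cells, 2364 to 4295 and 5 to 8 against healthy libraries, 0 to 2 and 0 to 0 between the gates in microglia-like cells, and 1036 to 2622 and 1 to 3 against healthy microglia-like cells. They ranged over 2 to 33 and 0 to 0 between the gates in monocyte/macrophage-like cells, 3357 to 4358 and 7 to 9 for monocyte/macrophage-like against microglia-like cells, 800 to 1740 and 4 to 5 for dendritic cell-like cells, and 4 to 15 and 0 to 0 for the interaction. Uncalled members that changed direction ranged, over all cells between the gates, from -0.61 to 1.09 (F3) and -0.63 to 0.27 (Procr), and against healthy libraries from -0.062 to 1.26 (F3) and -0.33 to 7.12 (F5). In dendritic cell-like cells Tfpi ranged from -1.51 to 0.013 and Thbd from -0.62 to 0.87. For the interaction F10 ranged from -0.55 to 0.046, F3 from -1.77 to 0.56, Procr from -1.57 to 7.79, Tfpi from -0.70 to 0.75 and Thbd from -7.70 to 3.21. Between the gates in microglia-like cells F10 ranged from -0.18 to 0.88, Procr from -7.47 to 0.79 and Tfpi from -0.30 to 0.16. In monocyte/macrophage-like cells the ranges were -0.39 to 0.35 (F10), -0.88 to 1.17 (F3), -0.20 to 1.39 (F5), -0.042 to 1.13 (F7), -0.62 to 0.40 (Tfpi) and -0.14 to 0.44 (Thbd).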

Other observations

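At a finer clustering (Leiden resolution 2) the dendritic cell-like cells of the EAE ROS- libraries fell into a cluster led by Ccl17 and H2-DMb2 (154 and 86 cells) and one led by Ccr7 and Fscn1 (15 and 18 cells), genes known from migrating dendritic cells. Procr was at 169 and 318 CPM in the Ccr7 Fscn1 cluster (13 and 27 UMIs) and at 90.4 and 98.2 CPM in the Ccl17 H2-DMb2 cluster. The smaller cluster holds fewer than 20 cells per library, and the difference was seen after its values and was not tested.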
